A study of Mus musculus with 8 samples.

Results

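Stromal cells that had been in contact with pre-B cells were compared with 2 mesenchymal lines of other origin. The comparison used 6 of the 8 arrays of the series, chosen by their labels: 2 arrays of OP9 cells cultured with 230-238 cells, 2 of NIH3T3 cells and 2 of MC3T3 cells. For each gene the mean of the co-culture arrays was set against the average of the NIH3T3 mean and the MC3T3 mean, and then against each line alone. OP9 cells grown without pre-B cells, on 2 further arrays, took no part in any test, and their values stand beside the others as a description. The study's text describes these controls as held in conditioned medium. The study asked which signals pass between stroma and developing B cells, and here the question was which genes set OP9 cells apart from the other lines while they were in contact with pre-B cells.

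OP9 is a bone marrow stromal line of mouse strain B6C3F1, known to support the growth of B cells and to lack functional macrophage colony-stimulating factor. Per the study's methods the OP9 cells carried the red protein mStrawberry through a retrovirus, were held for a week with the pre-B line 230-238, were freed with trypsin and EDTA, and were then sorted for red fluorescence. NIH3T3 is a fibroblast line and MC3T3 an osteoblast-like line, and the labels give the strain of both as Balb/c. Both were grown in Dulbecco's medium, whereas OP9 Strawberry cells were kept in OptiMEM. The labels trace MC3T3 replicate 2 to sorted cells and replicate 1 to a culture. Each group is a single cell line, and its 2 arrays, called biological replicates, do not state separate cultures, so the p-values rest on the scatter between the arrays of a group, part or all of which may be technical. Line, strain, medium, sorting and contact with pre-B cells all change together between the groups and cannot be told apart. Each array was labelled from a small number of cells, and a lower signal from fewer expressing cells cannot be told apart from less RNA per cell.

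Marrow stroma holds blood progenitors in place and feeds them. It secretes the chemokine CXCL12, which keeps B-lineage cells and stem cells in the marrow, and interleukin 7, which drives B cell precursors to divide, and it displays the adhesion molecule VCAM1. Stromal cells of this kind express the transcription factors EBF1, EBF3 and FOXC1, and they can turn into fat cells or bone cells. Cells that meet interferon or signals of the NF-kB pathway switch on antiviral proteins, the machinery that loads peptides on MHC class I, adhesion molecules and chemokines.

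The values were normalized intensities on a linear scale, and differences are given on the log2 scale. A gene was represented by its brightest named probe set and was tested where at least 2 of the 6 arrays reached 100, which 9970 of 18194 named genes did. Array medians ran from 41.8 to 44.99, so values below 100 are close to the background, and folds against them are compressed. The arrays of a group differed from each other by a median of 0.07 (co-culture), 0.14 (NIH3T3) and 0.09 (MC3T3) on the log2 scale. Genes counted as higher or lower passed in limma with a Benjamini-Hochberg adjusted p under 0.05 and a change of 2-fold or more. Array values are given in the order of the replicate number.

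Of 9970 genes, 1337 were higher (13.4%) and 980 lower (9.83%) in co-cultured OP9 cells than in the average of both lines. The average alone can be moved by 1 line, and only 708 genes were also higher than each line taken singly (7.1%) and 432 lower than each (4.33%). Against NIH3T3 cells alone 1898 genes were higher (19%) and 1132 lower (11.4%). Against MC3T3 cells alone 1126 were higher (11.3%) and 1165 lower (11.7%). A further 98 genes lay above NIH3T3 and below MC3T3 cells (0.983%), and 50 lay below NIH3T3 and above MC3T3 cells (0.502%). Of the genes higher than the average, 465 passed against NIH3T3 but not against MC3T3 cells and 164 the other way round. Among genes past 10-fold against both lines, 99 were higher and 22 lower. The median difference over all genes was 0.03. Counts in the gene lists below are to be read against these shares. They were 13.4% higher and 9.83% lower for the average, and 7.1% and 4.33% for each line. A list close to them does not stand out.

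**Figure D1:**
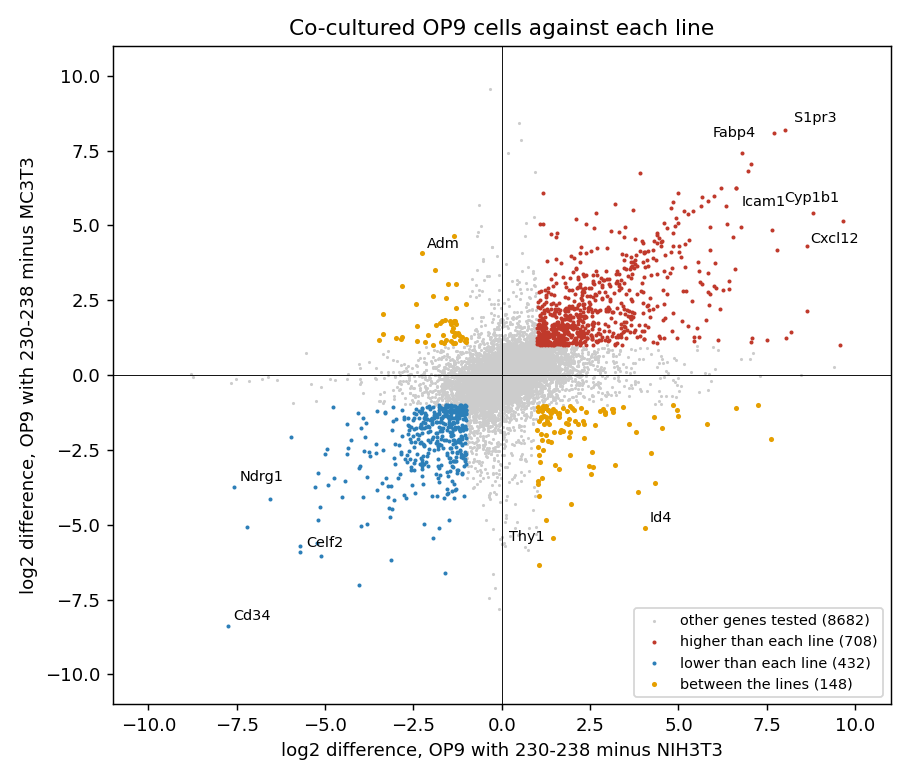
Difference in expression between co-cultured OP9 cells and NIH3T3 cells (horizontal axis, log2) and MC3T3 cells (vertical axis, log2), with 1 point per gene for the 9970 genes tested. Red points mark the 708 genes higher than each line, blue points the 432 lower than each line and orange points the genes between the lines. Both axes use the same co-culture arrays, so the lean of the cloud along the diagonal is built in, and the named genes at the corners, such as Cxcl12 and Cd34, carry the most extreme values.

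The genes that stood furthest above both lines had means under 100 in NIH3T3 cells and, except Cxcl12, Cyp1b1 and Hs6st2, also in MC3T3 cells. S1pr3, which encodes a receptor of sphingosine 1-phosphate, read 3605 and 3334 in co-cultured OP9 cells, 11.7 and 15.1 in NIH3T3 cells and 12.5 and 11.03 in MC3T3 cells. All 4 line arrays were at background and both co-culture arrays lay far above them, with a difference of 8.11 ± 0.12 (SE), adjusted p = 1.38e-07 in limma. Fabp4, the fatty acid carrier of fat cells, read 3654 and 3761 in co-cultured OP9 cells, 20.4 and 15.6 in NIH3T3 cells and 12.3 and 15.3 in MC3T3 cells (7.89 ± 0.14 (SE), adjusted p = 2e-07). For both genes the line values lay near the bottom of the scale, so the fold is only as exact as the background.

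Cxcl12 was the most abundant of these genes. It read 18390.4 and 18257 in co-cultured OP9 cells, 23.6 and 21.8 in NIH3T3 cells and 487 and 560.4 in MC3T3 cells, a difference of 7.39 ± 0.08 (SE), adjusted p = 1.38e-07. No array of either line came near the co-culture arrays, but the lines were unlike each other, and the gap was 807-fold to NIH3T3 and 35.1-fold to MC3T3 cells. A second probe set gave 7.41, and a dimmer one gave 1.19.

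Other genes of this group belong to several classes of function. Cyp1b1, a cytochrome P450 enzyme, had means of 8990.5, 20.4 and 211 in co-cultured OP9, NIH3T3 and MC3T3 cells. Epas1, which encodes the oxygen-regulated factor HIF-2 alpha, had 1893, 14.4 and 14.6 in the same order, and Hp, encoding the haemoglobin-binding protein haptoglobin, 5546, 51.7 and 32.6. The heparan sulfate sulfotransferase gene Hs6st2 was at 4208 against 10.7 and 209.7. These genes were thus bright in co-cultured OP9 cells and at or near background in at least 1 line.

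Enpep, encoding the surface peptidase aminopeptidase A, read 2739 and 2816 in co-cultured OP9 cells, 13.2 and 14.7 in NIH3T3 cells and 92.8 and 98.3 in MC3T3 cells (6.25 ± 0.07 (SE), adjusted p = 1.38e-07). Pde5a, a phosphodiesterase that degrades cyclic GMP, had means of 1169.6, 12.02 and 15.4, and the membrane protein genes Tmem26 and Itm2a were 119-fold and 74.9-fold above the average of the lines. The last of the 12 described here, the adhesion molecule gene Icam1, read 2158 and 2044 in co-cultured OP9 cells, 37.2 and 11.996 in NIH3T3 cells and 27.8 and 26.8 in MC3T3 cells. Its standard error of 0.40 was the widest of the 12, and its arrays still did not overlap those of either line.

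Niche factors were higher in co-cultured OP9 cells far more often than lower, but mostly against NIH3T3 cells. Of 26 listed factors, 3 had no named probe set, 6 stayed below the minimum and 17 were tested. Against the average of the lines 10 were higher (all genes 13.4%) and 0 lower by limma, also at an unadjusted p under 0.05, where 15 were higher, with a median difference of 1.25 against 0.03 over all genes. Against NIH3T3 cells alone 10 were higher, whereas 5 were higher and 3 lower against MC3T3 cells.

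The 3 factors higher than each line were Cxcl12, Angpt1 and Hgf. Angpt1, which encodes a ligand of the TIE2 receptor on stem cells and vessels, read 2204 and 2081 in co-cultured OP9 cells, 124 and 163 in NIH3T3 cells and 18.6 and 21.3 in MC3T3 cells (5.33 ± 0.12 (SE), adjusted p = 3.75e-07). Hgf, encoding hepatocyte growth factor, read 332 and 316 in co-cultured OP9 cells, 18.8 and 16.02 in NIH3T3 cells and 28.1 and 35.7 in MC3T3 cells (3.79 ± 0.12 (SE), adjusted p = 1.1e-06). In both cases the co-culture arrays lay above every line array.

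Several other factors separated co-cultured OP9 cells from NIH3T3 but not from MC3T3 cells. Igf1, which encodes an insulin-like growth factor, read 1373 and 1259 in co-cultured OP9 cells, 24.5 and 18.9 in NIH3T3 cells and 1375 and 1690.0 in MC3T3 cells. The co-culture values were 61.1-fold above NIH3T3 cells (adjusted p = 4.8e-07 by limma) and differed from MC3T3 cells by -0.21 on the log2 scale. Without pre-B cells the OP9 arrays read 3627 and 3623 for Igf1, above both MC3T3 arrays. Vcam1, with means of 3219, 459 and 2669, and Gas6, a ligand of receptor tyrosine kinases, with 3590.0, 75.04 and 5350.0, were likewise higher than NIH3T3 cells and not called against MC3T3 cells.

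The interleukin 7 gene Il7 lay between the lines. It read 76.4 and 70.8 in co-cultured OP9 cells, 17.3 and 18.4 in NIH3T3 cells and 172 and 157 in MC3T3 cells, which was 4.12-fold above NIH3T3 cells (adjusted p = 3.31e-06) and 2.23-fold below MC3T3 cells (adjusted p = 5.21e-05), and it was not called against their average. On the OP9 arrays without pre-B cells it read 325 and 283. Bmp4, encoding a bone morphogenetic protein, had 189.6 and 170.1 in co-cultured OP9 cells, 40.9 and 28.1 in NIH3T3 cells and 156 and 179 in MC3T3 cells. It was higher than the average of the lines (1.26 ± 0.16 (SE), adjusted p = 0.00044), and its co-culture arrays lay close to those of MC3T3 cells, with a difference of 0.11 (adjusted p = 0.626). The OP9 arrays without pre-B cells read 365 and 366 for Bmp4, so this closeness holds for the co-culture level only. The heparin-binding growth factor gene Ptn, with means of 1818, 11.9 and 3692, was higher than the average although it was lower than MC3T3 cells, and a second probe set gave 1.503 in place of 3.12. Without pre-B cells the OP9 arrays read 4725 and 4126 for Ptn. Kitl, encoding the ligand of KIT, had 4179.9, 2404 and 3325 and was not called. The macrophage colony-stimulating factor gene Csf1, whose functional protein OP9 cells are known to lack, gave a transcript signal of 2544 and 2542 in co-cultured OP9 cells, 1821 and 1853 in NIH3T3 cells and 2625 and 2664 in MC3T3 cells and was not called either.

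Ebf1, Foxc1 and Snai2, transcription factors of marrow stroma, were higher than in both lines, whereas Alcam and Cspg4, surface markers of mesenchymal cells, were lower. In the list of 21 stromal surface and transcription factor genes, 15 were tested, 5 were higher and 3 lower than the average, and the median was -0.20 (0.35 with a minimum of 200 and 0.32 with the mean of a gene's probe sets). Ebf1 read 1267 and 1531 in co-cultured OP9 cells, 43.7 and 60.5 in NIH3T3 cells and 139 and 122 in MC3T3 cells (4.09 ± 0.15 (SE), adjusted p = 1.95e-06). Foxc1 read 3592 and 3735 in co-cultured OP9 cells, 848 and 817 in NIH3T3 cells and 465 and 504 in MC3T3 cells. Snai2, which encodes a zinc finger factor of mesenchymal cells, read 8929 and 8503 in co-cultured OP9 cells, 164 and 144 in NIH3T3 cells and 1189 and 1380.1 in MC3T3 cells, with the most distant values in NIH3T3 cells. For these 3 factors the co-culture arrays did not overlap any line array.

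Ebf3 was an exception among the factors. Its means were 505, 304 and 41.2, so it was higher than MC3T3 cells but within 2-fold of NIH3T3 cells (0.75). Pdgfra, encoding the alpha receptor of platelet-derived growth factor and a mark of mesenchymal stroma, read 9933 and 9970.1 in co-cultured OP9 cells, 2351 and 2304 in NIH3T3 cells and 848 and 804 in MC3T3 cells and was 4.28-fold and 12.1-fold above the lines. The beta receptor gene Pdgfrb differed from NIH3T3 cells only, with means of 1627, 374 and 1960.0.

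Among the markers that were lower, Alcam, an adhesion molecule of mesenchymal cells, read 51.7 and 35.2 in co-cultured OP9 cells, 352 and 343 in NIH3T3 cells and 309 and 359.9 in MC3T3 cells (-3.00 ± 0.16 (SE), adjusted p = 8.58e-06). Cspg4, encoding the NG2 proteoglycan, had means of 47.01, 134 and 712. A second probe set of Cspg4 had 107.6, 184.1 and 372.7, with a difference from the average of -1.28 in place of -2.73. Thy1 was at background in both co-cultured OP9 and NIH3T3 cells, with 25.5 and 29.7 and 30.8 and 24.3, and bright in MC3T3 cells with 1255 and 1104. Lepr, the leptin receptor gene that marks a class of marrow stroma in the animal, stayed below 100 on all arrays, with co-culture values of 24.5 and 24.3. All 15 listed markers of mesenchymal cells were tested as a check of the labels. Of these, 2 were higher and 1 lower than the average, against shares of 13.4% and 9.83% over all genes. Counts so close to those shares cannot check the labels. By level, 14, 13 and 15 of the markers reached 100 in co-cultured OP9, NIH3T3 and MC3T3 cells. The collagen gene Col1a2 (16618, 13662 and 14219.6) and the vimentin gene Vim (16737, 15571 and 20129) were bright in every group.

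**Figure D2:**
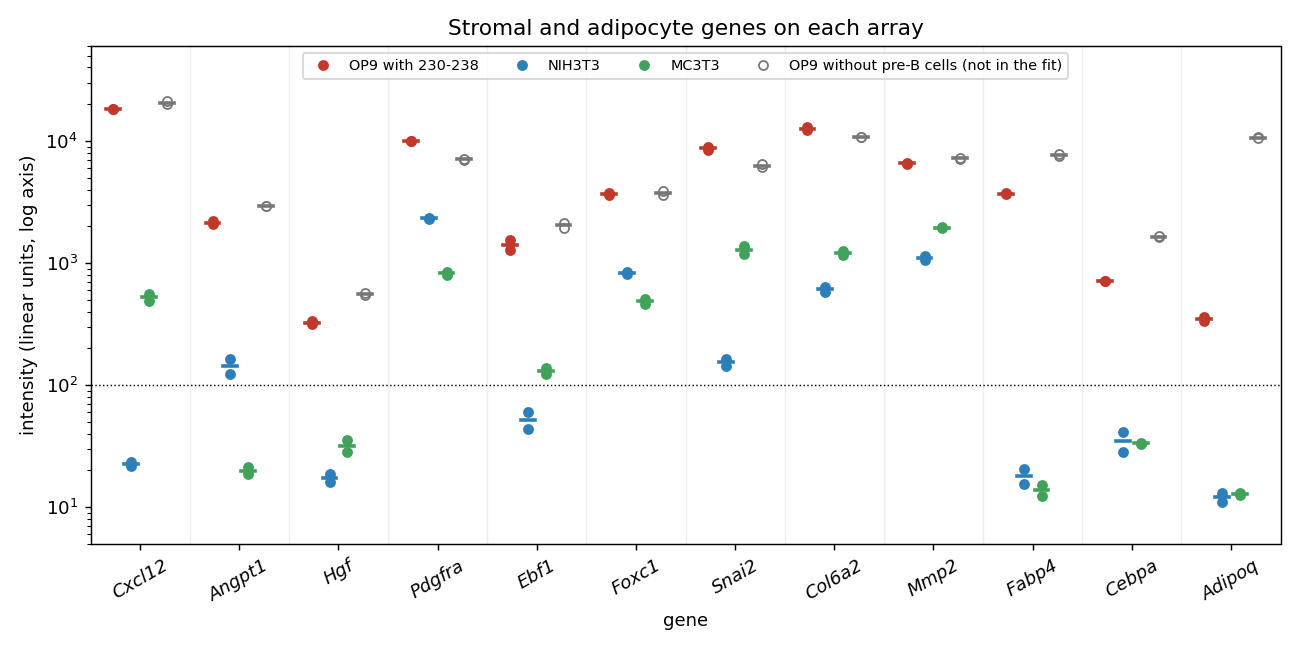
Intensity (linear units, log axis) of 12 stromal and adipocyte genes on every array, with filled points for the arrays compared, open points for OP9 cells grown without pre-B cells, bars for group means and a dotted line at the minimum of 100. Both co-culture arrays lie above all 4 arrays of NIH3T3 and MC3T3 cells throughout. For Adipoq the co-culture arrays at 358 and 337 also lie far below the OP9 arrays without pre-B cells at 10697 and 10639.

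Fabp4, Adipoq, Cebpa, Pparg, Cd36 and Hsd11b1, genes active in fat cells, were above both lines during contact, and all of them except Pparg were at the same time more than 2-fold below OP9 cells grown without pre-B cells. Of 35 listed adipocyte genes, 22 were tested, 9 were higher and 2 lower than the average, and the median was 0.34. Over all genes the shares were 13.4% higher and 9.83% lower, so the count of lower genes was close to its share. Cebpa, encoding a factor that drives fat cell formation, read 719 and 709 in co-cultured OP9 cells, 40.99 and 28.5 in NIH3T3 cells and 32.9 and 33.8 in MC3T3 cells (4.40 ± 0.14 (SE), adjusted p = 1.16e-06). Adipoq, which encodes the hormone adiponectin, read 358 and 337 in co-cultured OP9 cells, 13.01 and 11.04 in NIH3T3 cells and 13.02 and 12.7 in MC3T3 cells (4.81 ± 0.09 (SE), adjusted p = 2.05e-07). On the OP9 arrays without pre-B cells these genes read 1622 and 1663 and 10697 and 10639.

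Pparg, the master regulator of fat cells, had means of 733, 327 and 22.1 and was higher than each line, by 2.24-fold and 33.2-fold. The fatty acid transporter gene Cd36 (134, 21.4 and 30.1) and Hsd11b1, which encodes an enzyme that activates glucocorticoids (313, 62.9 and 80.3), were also higher than each line. Lpl, encoding lipoprotein lipase, read 6315 and 6290.1 in co-cultured OP9 cells, 4342 and 4583 in NIH3T3 cells and 23.4 and 14.1 in MC3T3 cells, which set co-cultured OP9 cells apart from MC3T3 cells only (difference from NIH3T3 0.50). Cd36 and Hsd11b1 read 1885 and 2042 and 2578 and 2481 in OP9 cells grown without pre-B cells.

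Enzymes that make fat did not share this pattern. Scd1, which encodes a desaturase of fatty acids, read 433 and 406 in co-cultured OP9 cells, 2406 and 2520.4 in NIH3T3 cells and 3450.3 and 3651 in MC3T3 cells and was lower than each line (-2.82 ± 0.07 (SE), adjusted p = 4.3e-07). Plin2, a coat protein of lipid droplets, was lower than the average with means of 1784, 8028 and 2357, mostly through NIH3T3 cells. The fatty acid synthase gene Fasn had 528, 404 and 1443 and did not pass.

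Collagens of several types were higher in co-cultured OP9 cells. Among 33 tested genes of the interstitial matrix, of 42 listed, 11 were higher and 6 lower than the average, with a median of 0.54. Col6a2 and Col6a1, which encode chains of the beaded collagen VI, read 12886 and 12367 in co-cultured OP9 cells, 578 and 636 in NIH3T3 cells and 1172 and 1259 in MC3T3 cells and 12415 and 12423 in co-cultured OP9 cells, 1242 and 1271 in NIH3T3 cells and 1498 and 1482 in MC3T3 cells. The third chain, Col6a3, had means of 8925, 4254 and 1577, so that every chain of this collagen listed here was higher than each line. The differences from the average were 3.88 ± 0.07, 3.18 ± 0.06 and 1.78 ± 0.06 (SE).

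Loxl1, encoding an enzyme that crosslinks elastin, had means of 2842, 547 and 85.1. Col1a1 read 9966 and 10004 in co-cultured OP9 cells, 3542 and 2906 in NIH3T3 cells and 2239 and 2200.3 in MC3T3 cells and was 3.11-fold and 4.499-fold above the lines, while its partner chain Col1a2 was not called. Thbs1, encoding thrombospondin 1, read 286 and 301 in co-cultured OP9 cells, 19.1 and 17.4 in NIH3T3 cells and 73.2 and 67.8 in MC3T3 cells and was also higher than each line. On the lower side, Col8a1 was below each line with 26.4 and 28.01 in co-cultured OP9 cells, 403 and 454 in NIH3T3 cells and 807 and 985 in MC3T3 cells. The other genes lower than the average were bright in 1 line only: Postn (61.2, 35.98 and 2109), Fmod (27.6, 19.9 and 1111), Lum (32.2, 17.5 and 730.1) and Col8a2 (15.004, 19.3 and 229) in MC3T3 cells, and Fbln1 (63.9, 654 and 39.4) in NIH3T3 cells.

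In the basement membrane list 14 of 23 genes were tested, and 6 were higher and 2 lower (all genes 13.4% and 9.83%, median 0.25). The count of lower genes was thus close to its share. Col4a1 and Col4a2 encode the common chains of collagen IV and read 967 and 937 in co-cultured OP9 cells, 19.9 and 23.8 in NIH3T3 cells and 367 and 499 in MC3T3 cells, and 1343 and 1368 in co-cultured OP9 cells, 29.5 and 27.5 in NIH3T3 cells and 573 and 544 in MC3T3 cells. The linker protein gene Nid1 read 3643 and 3922 in co-cultured OP9 cells, 298 and 300.3 in NIH3T3 cells and 1029 and 997 in MC3T3 cells, and the 3 genes were higher than each line. Col4a6, a chain of restricted use, ran the other way with 141 and 138 in co-cultured OP9 cells, 2072 and 2117 in NIH3T3 cells and 362 and 384 in MC3T3 cells and was lower than each line (-2.67 ± 0.06 (SE), adjusted p = 4.1e-07).

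Matrix proteases and their inhibitors formed one of the most one-sided lists, with 12 of 18 tested genes, tissue inhibitors included, higher than the average, 0 lower by limma (2 at an unadjusted p under 0.05) and a median of 1.53. Mmp13, encoding an interstitial collagenase, read 665 and 741 in co-cultured OP9 cells, 7.94 and 8.303 in NIH3T3 cells and 93.3 and 98.5 in MC3T3 cells (4.65 ± 0.07 (SE), adjusted p = 1.73e-07). It was higher still on the OP9 arrays without pre-B cells, at 1869 and 2120. Mmp9, a gelatinase, read 1505 and 1622 in co-cultured OP9 cells, 47.9 and 51.2 in NIH3T3 cells and 47.5 and 44.5 in MC3T3 cells (5.03 ± 0.07 (SE), adjusted p = 1.38e-07), while the OP9 arrays without pre-B cells read 80.997 and 77.3. Mmp2, the other gelatinase, had means of 6591, 1101 and 1945 and of 7184 in OP9 cells without pre-B cells. Thus both gelatinases were higher than each line, and of the 2 only Mmp9 was also far above the OP9 arrays without pre-B cells.

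Mmp23 (2107, 70.5 and 54.8) and Mmp19 (369.6, 17.5 and 14.5), genes of further metalloproteinases, were near background in both lines. The tissue inhibitor genes did not follow, since Timp1 (2772, 1085 and 2796) and Timp2 (12535, 3893 and 13433) were level with MC3T3 cells and Timp3 lay between the lines. The count of lower genes was 1 under quantile normalization, under median scaling and without co-culture replicate 2, NIH3T3 replicate 2 or MC3T3 replicate 2.

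Bone cell genes gave few values, since 10 of 20 listed were below the minimum in all groups and 4 had no named probe set. Alpl, encoding the alkaline phosphatase of osteoblasts, was at 40.9 and 30.8 in co-cultured OP9 and 31.9 and 23.1 in MC3T3 cells, and Ibsp at 17.5 and 22.2 and 15.2 and 15.2, so these defining markers were at background in the line labelled osteoblast-like. Of the 6 genes tested, 4 were higher and 1 lower than the average (all genes 13.4% and 9.83%). Tnfrsf11b, which encodes osteoprotegerin, the decoy receptor that restrains osteoclasts, read 133 and 132 in co-cultured OP9 cells, 7.02 and 7.52 in NIH3T3 cells and 35.5 and 33.2 in MC3T3 cells (3.07 ± 0.07 (SE), adjusted p = 3.38e-07). Dmp1, a matrix protein gene of osteocytes, was bright in MC3T3 cells alone (18.4, 10.99 and 1056). The cadherin gene Cdh11 was above NIH3T3 and below MC3T3 cells with means of 1880.5, 9.65 and 8208, and its second probe set gave a difference from the average of 0.37 in place of 2.74.

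Of 14 contractile genes tested, 1 was higher and 0 lower than the average by limma, against 8 and 2 at an unadjusted p under 0.05. With shares of 13.4% and 9.83% over all genes, these counts do not set so short a list apart. Against NIH3T3 cells 5 were higher and 0 lower, and against MC3T3 cells 1 was higher and 3 lower. The smooth muscle actin gene Acta2 read 1185 and 1317 in co-cultured OP9 cells, 115 and 92.5 in NIH3T3 cells and 3778 and 4064 in MC3T3 cells and thus lay between the lines, and on the OP9 arrays without pre-B cells it read 7844 and 8666. Smtn, encoding the cytoskeletal protein smoothelin, was the gene called, with means of 649, 364 and 247.

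Genes of positional identity split in both directions. Only 9 of 39 Hox genes were tested, of which 2 were higher and 3 lower than the average, each through 1 line. With shares of 13.4% and 9.83% over all genes, these counts do not set so short a list apart. Hoxa10 was at background in NIH3T3 cells only (204, 12.9 and 140.4), Hoxa2 in MC3T3 cells only (251, 229 and 19.3), and Hoxd9 was bright in NIH3T3 cells only (49.3, 356 and 60.4). In the list of mesenchymal transcription factors, 28 of 54 were tested, with 6 higher and 6 lower (3 and 5 with the mean of a gene's probe sets).

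Gata6, encoding a zinc finger factor of the heart, gut and vessel wall, read 226 and 249.8 in co-cultured OP9 cells, 22.7 and 16.7 in NIH3T3 cells and 28.6 and 37.8 in MC3T3 cells, and Meis2, a homeobox cofactor, read 1179.7 and 1162 in co-cultured OP9 cells, 228 and 315 in NIH3T3 cells and 381 and 400.5 in MC3T3 cells, and both were higher than each line. Lower than each line were Pax3 (18.9, 124 and 329) and Foxf2 (13.7, 372 and 28.7). So were Osr1 (463, 1406 and 1073) and Nr2f2 (328, 814 and 675), and these factors pattern muscle, gut, limb and vessel precursors. For Foxf2 the co-culture and MC3T3 means were both at background, so it was bright in NIH3T3 cells only. With a pseudocount of 16, 3 in place of 4 factors of the list were lower than each line.

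Imprinted genes, many of which are active in the embryo and are shut off in grown tissue, gave 4 higher and 2 lower of 11 tested. Over all genes the shares were 13.4% and 9.83%, and 2 lower genes do not set so short a list apart. Mest, encoding a hydrolase linked to fat cell growth, read 954 and 928 in co-cultured OP9 cells, 14.6 and 17.1 in NIH3T3 cells and 29.2 and 31.8 in MC3T3 cells (5.42 ± 0.09 (SE), adjusted p = 1.63e-07), and Sgce, encoding a sarcoglycan, read 1838 and 1874 in co-cultured OP9 cells, 40.1 and 44.8 in NIH3T3 cells and 742 and 796 in MC3T3 cells. The OP9 arrays without pre-B cells read 3038 and 3169 for Mest and 1935 and 1943 for Sgce. Dlk1, which encodes a Notch-like membrane protein of precursor cells, was close to NIH3T3 cells and far above MC3T3 cells with means of 504, 606 and 26.2. Grb10, an adaptor that restrains insulin signals, was bright in NIH3T3 cells alone (52.5, 3128 and 101).

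**Figure D3:**
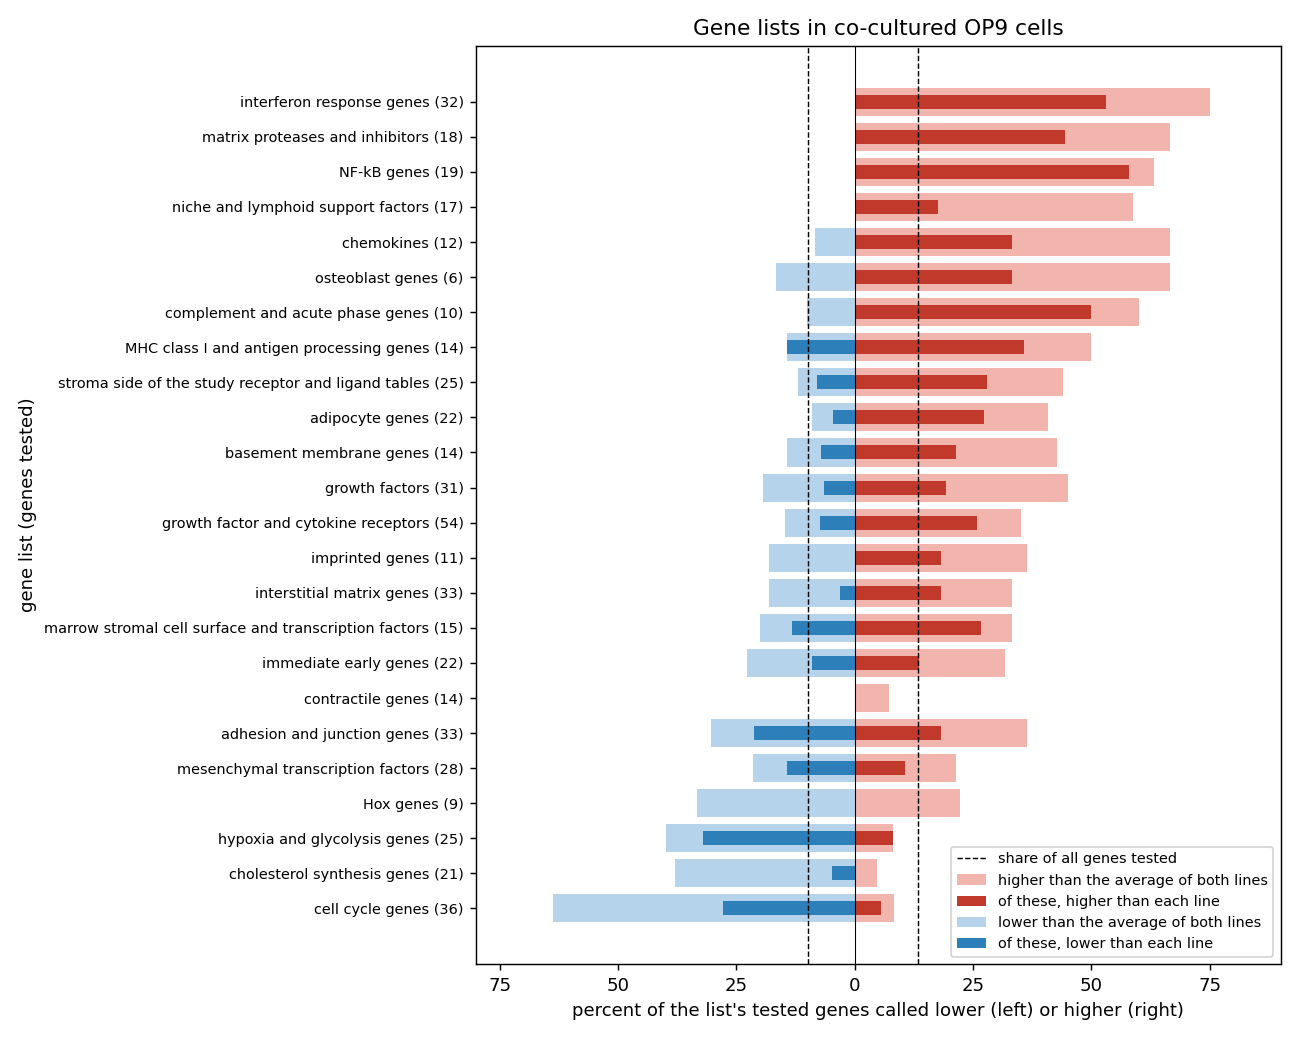
Share of the tested genes of each list (number tested in brackets) called higher (right, red) or lower (left, blue) in co-cultured OP9 cells than the average of NIH3T3 and MC3T3 cells, with darker bars for the genes called against each line as well. Dashed lines mark 13.4% and 9.83%, the shares over all 9970 genes tested. Interferon response genes stand at the top with 24 of 32 higher and cell cycle genes at the bottom with 23 of 36 lower.

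Interferon response genes were higher in co-cultured OP9 cells than in either line. Of 43 listed, 4 had no named probe set, 7 stayed below the minimum and 32 were tested, of which 24 were higher and 0 lower than the average by limma, against 30 and 2 at an unadjusted p under 0.05. Of these, 17 were higher than each line, and the median difference was 1.70. Usp18, encoding the protease that removes ISG15 from proteins and damps the interferon receptor, read 458 and 491 in co-cultured OP9 cells, 15.1 and 14.2 in NIH3T3 cells and 24.5 and 23.2 in MC3T3 cells (4.67 ± 0.07 (SE), adjusted p = 1.38e-07). Ifit1, encoding a protein that binds viral RNA, read 629 and 714 in co-cultured OP9 cells, 23.8 and 32.7 in NIH3T3 cells and 64.3 and 56.8 in MC3T3 cells (4.03 ± 0.14 (SE), adjusted p = 1.57e-06). Both lines were at background for both genes.

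The transcription factors that carry the interferon signal followed the effectors. Irf7 read 375 and 334 in co-cultured OP9 cells, 74.3 and 47.9 in NIH3T3 cells and 55.9 and 59.9 in MC3T3 cells, Irf9 had means of 633, 56.5 and 97.9 and Stat2 had 376, 108 and 121, and the 3 were higher than each line. The sensors of viral RNA Ifih1 (429, 25.0002 and 86.2) and Dhx58 (339, 53.9 and 30.7) were as well. Genes of the GTPases that act on vacuoles of intracellular microbes were also higher, among them Iigp1 (265, 21.1 and 28.1), Gbp7 (344, 31.4 and 40.3) and Irgm2 (304, 38.3 and 63.4).

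Not every gene of this list was higher. Irgm1 (676, 137 and 617) and Ifi47 (458, 77.4 and 535) were level with MC3T3 cells, and Ifit2 (249, 321 and 277) and Parp9 (595, 589.8 and 337) were not called. Oasl1 was higher in NIH3T3 cells (53.7, 238 and 41.05). The chemokine gene Cxcl10, a common mark of interferon gamma, stayed below 100 on all arrays, with 70.7 and 75.98 in co-cultured OP9 cells, and Mx1 read 16.9 and 22.2. Of the 17 genes higher than each line, 14 were also more than 2-fold above the OP9 arrays without pre-B cells, and Ifit1, for example, read 81.5 and 92.8 there.

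Many promoters of these genes hold the core of the element that interferon-regulated factors bind. The core was searched on both strands as GAAANNGAAA in the RefSeq windows of 250 bases before to 50 after a start site (assembly GRCm38.p6). It was in a window of 3.99% of 27025 genes, of 16 of the 26 tested interferon genes with a window (61.5%) and of 14 of the 20 called higher (70%). For the NF-kB pathway the palindrome GGAANTTCC was searched, and it was in 1.07% of all genes. It was in 3 of 17 tested NF-kB genes with a window (17.6%) and in 2 of 11 called higher (18.2%). The share was thus alike in the tested and the called NF-kB genes. A match is a description of the letters and not a bound site. The windows below are shown as examples of a matched core in genes higher than each line, with the matched cores in capitals, 5′ to 3′ along the gene. They are those of Ifit1 (chr19:34640639-34640938, plus strand), Gbp3 (chr3:142559794-142560093, plus strand), Igtp (chr11:58199306-58199605, plus strand), Icam1 (chr9:21015690-21015989, plus strand) and Tnfaip3 (chr10:19015361-19015660, minus strand).
Ifit1: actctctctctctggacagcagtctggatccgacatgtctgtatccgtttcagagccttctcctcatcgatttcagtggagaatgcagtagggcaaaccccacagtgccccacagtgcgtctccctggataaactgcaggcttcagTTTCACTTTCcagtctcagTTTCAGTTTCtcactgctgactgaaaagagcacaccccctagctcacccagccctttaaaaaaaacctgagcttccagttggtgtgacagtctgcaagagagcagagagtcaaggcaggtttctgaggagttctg
Gbp3: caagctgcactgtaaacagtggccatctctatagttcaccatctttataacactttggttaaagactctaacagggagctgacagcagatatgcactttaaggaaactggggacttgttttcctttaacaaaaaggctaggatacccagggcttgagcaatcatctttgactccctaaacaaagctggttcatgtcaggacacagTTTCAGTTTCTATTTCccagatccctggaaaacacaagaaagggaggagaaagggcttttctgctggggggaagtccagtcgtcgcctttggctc
Igtp: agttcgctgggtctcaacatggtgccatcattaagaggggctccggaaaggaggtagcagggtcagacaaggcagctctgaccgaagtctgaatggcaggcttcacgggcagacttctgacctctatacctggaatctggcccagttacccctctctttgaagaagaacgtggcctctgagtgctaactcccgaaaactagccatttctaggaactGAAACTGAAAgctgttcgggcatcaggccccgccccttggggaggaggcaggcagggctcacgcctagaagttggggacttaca
Icam1: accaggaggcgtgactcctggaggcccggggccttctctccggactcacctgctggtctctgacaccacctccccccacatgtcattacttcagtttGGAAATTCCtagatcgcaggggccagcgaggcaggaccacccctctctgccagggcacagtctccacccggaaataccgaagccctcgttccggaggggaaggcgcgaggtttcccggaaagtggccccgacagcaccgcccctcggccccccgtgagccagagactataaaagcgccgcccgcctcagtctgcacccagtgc
Tnfaip3: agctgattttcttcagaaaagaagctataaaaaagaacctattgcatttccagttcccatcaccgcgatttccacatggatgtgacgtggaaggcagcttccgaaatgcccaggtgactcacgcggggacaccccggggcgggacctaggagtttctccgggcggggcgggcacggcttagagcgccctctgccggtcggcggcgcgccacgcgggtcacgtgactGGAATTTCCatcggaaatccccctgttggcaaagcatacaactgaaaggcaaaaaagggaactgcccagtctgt

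The Ifit1 and Gbp3 windows each hold the interferon core at 2 places, which in Gbp3 overlap, and the Igtp window holds it at 1. Gbp3, encoding a guanylate-binding GTPase, read 165 and 194 in co-cultured OP9 cells, 38.3 and 43.5 in NIH3T3 cells and 36.3 and 40.3 in MC3T3 cells, and Igtp, encoding another GTPase of the interferon gamma response, read 438 and 396 in co-cultured OP9 cells, 178 and 171 in NIH3T3 cells and 131 and 118 in MC3T3 cells. Both were higher than each line, by 4.53-fold and 2.83-fold against the average. The Icam1 and Tnfaip3 windows hold the NF-kB palindrome once each.

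The genes that cut and load peptides for MHC class I were higher, while the class I heavy chains themselves could not be read with certainty. Of 14 tested genes, 7 were higher and 2 lower than the average, with a median of 0.91. Psmb8 and Psmb9, which encode subunits of the immunoproteasome, read 776 and 805 in co-cultured OP9 cells, 50.1 and 47.4 in NIH3T3 cells and 44.3 and 49.3 in MC3T3 cells, and 1476 and 1402 in co-cultured OP9 cells, 127 and 162 in NIH3T3 cells and 57.9 and 46.8 in MC3T3 cells. The peptide pump genes Tap1 and Tap2 had means of 505, 102 and 214 and 2107, 525 and 196. These 4 genes and Psmb10 were higher than each line, and all 5 were more than 2-fold above the OP9 arrays without pre-B cells.

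B2m, encoding the light chain, was bright in every group (14648, 9015 and 11496) and was not called. H2-D1 and H2-K1 were lower with the probe sets used, at 519, 8316 and 4233 and 439, 5858 and 2894. Other probe sets of the same genes above the minimum were split. For H2-D1 they gave -3.98, -3.33 and -2.66 but also 6.05 and 1.38, and for H2-K1 they gave -0.93 and 1.53. With the mean of a gene's probe sets both calls were lost, at -0.54 and -0.57. These genes differ in sequence between mouse strains, the labels give different strains for the groups, and the part of sequence in these values was not tested.

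NF-kB genes were as one-sided as the interferon genes. Of 19 tested, 12 were higher and 0 lower than the average by limma (19 and 0 at an unadjusted p under 0.05), 11 were higher than each line, and the median was 1.70. Nfkbie, encoding an inhibitor that holds NF-kB in the cytoplasm, read 2282 and 2315 in co-cultured OP9 cells, 42.7 and 37.6 in NIH3T3 cells and 202 and 231 in MC3T3 cells (4.63 ± 0.09 (SE), adjusted p = 2.26e-07). Birc3, which encodes an inhibitor of apoptosis and acts in signals of the TNF receptor family, read 968 and 1084 in co-cultured OP9 cells, 94.6 and 89.3 in NIH3T3 cells and 238 and 259 in MC3T3 cells. Bcl3 read 676 and 699 in co-cultured OP9 cells, 119.6 and 146 in NIH3T3 cells and 65.7 and 70.5 in MC3T3 cells. All co-culture arrays for these 3 genes lay above all line arrays.

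Subunits that are themselves targets of the pathway were higher than each line, with means of 379, 137 and 89.7 for Relb and 1085, 483 and 328 for Nfkb2. Rela, made at a steady level in most cells, had 1164, 1216 and 829.5 and was not called. The feedback gene Tnfaip3, encoding the enzyme A20, read 1371 and 1269 in co-cultured OP9 cells, 310.5 and 300.4 in NIH3T3 cells and 287 and 270.4 in MC3T3 cells (2.18 ± 0.07 (SE), adjusted p = 1.15e-06). Nfkbia, by contrast, had 6056, 7126 and 2317 and was close to NIH3T3 cells. Of the 11 genes higher than each line, 9 were more than 2-fold above the OP9 arrays without pre-B cells, among them Icam1 at 305 and 298 there.

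**Figure D4:**
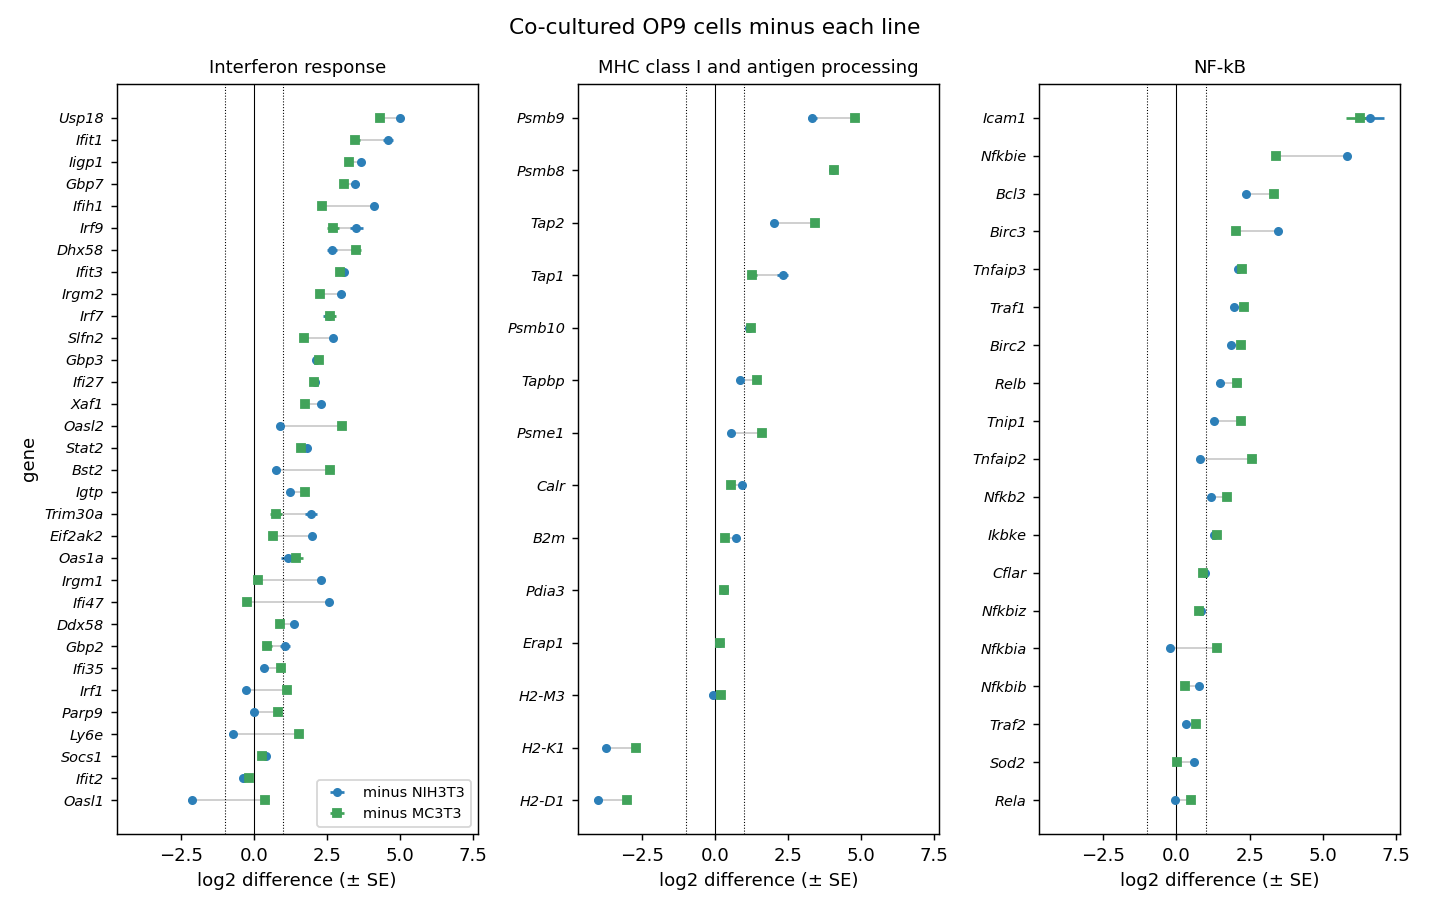
Difference (log2, with the standard error from limma) between co-cultured OP9 cells and NIH3T3 cells (blue circles) and MC3T3 cells (green squares) for the tested genes of 3 lists, with dotted lines at 2-fold. Most points of the interferon and NF-kB lists lie to the right of the dotted line at 1 against both lines. In the MHC class I list the proteasome and peptide pump genes lie to the right, and H2-K1 and H2-D1, whose probe sets disagree, to the left.

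Signals of pre-B cells could reach these arrays if such cells passed the sort, so their markers were read as well. Of 21 pre-B markers, 20 had a named probe set, and their summed levels were 2654 and 2709 in co-cultured OP9 cells, 1999 and 1944 in NIH3T3 and 1611 and 1516 in MC3T3 cells. On the OP9 arrays without pre-B cells they were 1502 and 1542. Without Spib the sums were 1930.4 and 1979 in co-cultured OP9, 1959 and 1925 in NIH3T3, 1583 and 1494 in MC3T3 and 1482 and 1519.8 in OP9 cells without pre-B cells, so co-culture was above the last of these with and without Spib. Of these markers, 4 reached 100 in co-cultured OP9, 5 in NIH3T3 and 2 in MC3T3 cells. Of 6 tested, 2 were higher than the average, Spib and Cd24a, and 1 was lower. Cd24a had means of 310.8, 493.2 and 11.42 in co-cultured OP9, NIH3T3 and MC3T3 cells. Its mean was 184 in OP9 cells without pre-B cells. Several other defining markers were near background in co-cultured OP9 cells. Values were 38.04 and 51.4 for Cd79a, 32.1 and 28.5 for Cd79b and 45.04 and 36.4 for Pax5. Il7r read 17.99 and 19.7, and Rag1 read 10.8 and 13.1.

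Some transcripts of blood cells did stand above the lines. Spib, encoding a factor of B cells and plasmacytoid dendritic cells, read 723 and 729.6 in co-cultured OP9 cells, 40.8 and 19.5 in NIH3T3 cells and 27.4 and 21.5 in MC3T3 cells (4.80 ± 0.28 (SE), adjusted p = 1.32e-05) and 19.8 and 22.6 on the OP9 arrays without pre-B cells. Vpreb1, a part of the pre-B cell receptor, had 77.7 and 76.05 against 30.1 and 25.2 and 24.7 and 21.97, and Ptprc, the common antigen of leukocytes, had 34.6 and 31.1 against 8.02 and 11.8 and 11.8 and 11.3, all below the minimum and not tested. Coro1a, an actin-binding protein gene of leukocytes, was higher than each line with 116 and 125 in co-cultured OP9 cells, 51.001 and 30.9 in NIH3T3 cells and 40.3 and 34.4 in MC3T3 cells, a call lost with the mean of its probe sets. Without a minimum the leukocyte markers higher than the average numbered 4 in place of 1. The pre-B markers higher than the average then numbered 4 in place of 2, and those higher than each line 3 in place of 1. The part of pre-B cell RNA in the interferon, antigen processing and NF-kB values was not tested.

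The summed leukocyte markers were highest in MC3T3 cells, at 4667 and 4413 against 1267 and 1274 in co-cultured OP9 cells, through Arhgdib (133, 58.01 and 3829.6). Of 3 macrophage markers tested none was called by limma, and at an unadjusted p under 0.05 there was 1 in each direction. Endothelial markers had 1 lower, Mmrn2, which was bright in NIH3T3 cells (25.3, 412 and 21.7). Among the epithelial markers Epcam, an adhesion molecule gene, read 639.6 and 448 in co-cultured OP9 cells, 147 and 173 in NIH3T3 cells and 178 and 163 in MC3T3 cells, and Trp63, which encodes a factor of basal epithelium, read 297 and 363 in co-cultured OP9 cells, 17.2 and 23.9 in NIH3T3 cells and 103 and 134 in MC3T3 cells, and both were higher than each line, but not with the mean of a gene's probe sets, and a second probe set of Epcam was at 19.1 in co-cultured OP9 cells. The other epithelial markers, Cdh1 (9.36 and 9.19) and Krt18 (13.7 and 13.6) among them, were at background in co-cultured OP9 cells.

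Chemokines, Cxcl12 included, were mostly higher than in MC3T3 cells and mixed against NIH3T3 cells. Of 31 listed, 17 stayed below the minimum, and of 12 tested 8 were higher and 1 lower than the average. Against MC3T3 cells 9 were higher, and against NIH3T3 cells 4 were higher and 2 lower. Ccl5, which attracts T cells and monocytes, read 1142 and 1181 in co-cultured OP9 cells, 309 and 292 in NIH3T3 cells and 67.3 and 78.9 in MC3T3 cells (2.97 ± 0.08 (SE), adjusted p = 7.67e-07). Cx3cl1, the membrane-bound chemokine fractalkine, read 1782 and 1791 in co-cultured OP9 cells, 214 and 218 in NIH3T3 cells and 374 and 408 in MC3T3 cells, and Cxcl16 had means of 289.6, 100.4 and 106. These genes and Cxcl12 were higher than each line.

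The monocyte chemokine gene Ccl2 lay between the lines, with 1473 and 1309 in co-cultured OP9 cells, 4616 and 4657 in NIH3T3 cells and 426 and 400.5 in MC3T3 cells. Ccl9 read 13615 and 13445 in co-cultured OP9 cells, 9057 and 9463 in NIH3T3 cells and 59.7 and 57.3 in MC3T3 cells and was 231-fold above MC3T3 but within 2-fold of NIH3T3 cells (0.55). Ccl7 had a like order with means of 1869, 2654 and 205. NIH3T3 cells were the bright group for Ccl2 and Ccl7, and MC3T3 cells were the low group of the 3 compared for all of these. The OP9 arrays without pre-B cells read 130 and 129 for Ccl2, 1552 and 1762 for Ccl9 and 166 and 167 for Ccl7. Ccl5 read 50.0 and 43.0 there, whereas Cxcl12 read 19989 and 21062. The study reports Ccl2, Ccl5 and Ccl9 among the genes induced in OP9 cells by pre-B cells.

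In the list of complement and acute phase genes 10 of 30 were tested, 6 were higher and 1 lower, and the median was 1.91. C1s1 and C1ra, which encode the proteases that start the classical pathway, read 7198 and 7063 in co-cultured OP9 cells, 2917 and 2861 in NIH3T3 cells and 931 and 979 in MC3T3 cells, and 4221 and 4234 in co-cultured OP9 cells, 1261 and 1203 in NIH3T3 cells and 706 and 666 in MC3T3 cells. The membrane inhibitor gene Cd59a had means of 594, 33.9 and 33.99, and Cp, encoding the copper carrier ceruloplasmin, 3169, 1212 and 121. All 4 were higher than each line, as was Hp. Saa3, an acute phase gene, was bright in NIH3T3 cells only (48.4, 297 and 51.8).

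Growth factors differed in both directions. Of 70 listed, 31 were tested, with 14 higher and 6 lower than the average (all genes 13.4% and 9.83%) and a median of 0.53. Tgfb2, encoding a transforming growth factor beta, read 1082 and 956 in co-cultured OP9 cells, 22.8 and 17.7 in NIH3T3 cells and 123 and 123 in MC3T3 cells (4.35 ± 0.12 (SE), adjusted p = 5.91e-07). Dkk3, a secreted glycoprotein of the Dickkopf family, read 3409.9 and 3290.1 in co-cultured OP9 cells, 24.1 and 26.2 in NIH3T3 cells and 1514 and 1596 in MC3T3 cells, and the lymphatic vessel factor gene Vegfc had means of 214, 16.5 and 50.2. Angptl4, which inhibits lipoprotein lipase, was 109.6-fold above MC3T3 and within 2-fold of NIH3T3 cells (0.94).

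The growth factors lower than each line were the neurotrophin gene Bdnf, with 108 and 121 in co-cultured OP9 cells, 593 and 663 in NIH3T3 cells and 506 and 564 in MC3T3 cells, and the epidermal growth factor family member Ereg, with 56.6 and 59.99 in co-cultured OP9 cells, 281 and 396 in NIH3T3 cells and 236 and 238 in MC3T3 cells. Gdnf was a product of NIH3T3 cells (26.1, 533 and 25.7) and Pdgfd of MC3T3 cells (9.81, 9.84 and 490.4), each at background elsewhere.

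Receptors of inflammatory cytokines were among the genes higher than each line. In the list of 70 receptors 54 were tested, 19 were higher and 8 lower (5 with the mean of a gene's probe sets), and 14 were higher than each line. Lifr, encoding the receptor of leukemia inhibitory factor, read 1205 and 1329.5 in co-cultured OP9 cells, 65.3 and 97.6 in NIH3T3 cells and 59.8 and 60.2 in MC3T3 cells (4.19 ± 0.16 (SE), adjusted p = 2.04e-06). Osmr, encoding the receptor of oncostatin M, read 4422 and 4339.8 in co-cultured OP9 cells, 1337 and 1635 in NIH3T3 cells and 157 and 167 in MC3T3 cells (3.16 ± 0.09 (SE), adjusted p = 8.89e-07), and 334 and 284 on the OP9 arrays without pre-B cells. Il6st, the shared signal chain of both, had means of 2812, 2137 and 757. It was higher than the average and than MC3T3 cells but within 2-fold of NIH3T3 cells.

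The interleukin 1 receptor gene Il1r1 read 2124 and 1971 in co-cultured OP9 cells, 251 and 276 in NIH3T3 cells and 201 and 170.1 in MC3T3 cells, and the death receptor gene Fas had means of 705, 114 and 85.5. Agtr1a, a receptor of angiotensin II, read 257 and 258 in co-cultured OP9 cells, 20.7 and 24.8 in NIH3T3 cells and 21.2 and 23.1 in MC3T3 cells, and the receptor genes of interferon gamma, Ifngr1 (1419, 242 and 490.3) and Ifngr2 (798, 313 and 377), were both higher than each line. Tnfrsf1a, a receptor of tumor necrosis factor, was near the 2-fold limit with a difference of 1.02 from the average, and fell under it without MC3T3 replicate 1 (0.99). Receptors lower than each line were Nrp2 (75.4, 2917 and 998), Tnfrsf12a (376, 1784 and 3064), Il17ra (41.1, 253 and 146) and Axl (947, 2794 and 3415), of which the call of Axl was lost with the mean of its probe sets (-0.87).

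The study paired receptors and ligands of stroma and blood cells, and 26 genes of the stroma side were listed. That list was chosen on arrays of this series and is not independent evidence of a direction. Of 25 tested, 11 were higher and 3 lower than the average (1 lower with the mean of a gene's probe sets), and 7 were higher than each line. Il1rn, whose product blocks the interleukin 1 receptor, read 665 and 603 in co-cultured OP9 cells, 45.5 and 47.2 in NIH3T3 cells and 44.2 and 44.7 in MC3T3 cells (3.80 ± 0.07 (SE), adjusted p = 2.09e-07). It was higher still on the OP9 arrays without pre-B cells, at 2448.5 and 2415.8. The junctional adhesion molecule gene Jam2 read 249 and 240.4 in co-cultured OP9 cells, 23.6 and 25.6 in NIH3T3 cells and 34.99 and 33.9 in MC3T3 cells and was higher than each line, whereas Jam3, with 278 and 235 in co-cultured OP9 cells, 31.96 and 33.1 in NIH3T3 cells and 273 and 254 in MC3T3 cells, was higher than NIH3T3 cells only. Cd80, a ligand of CD28 on T cells, had means of 397, 50.3 and 90.2, and Notch3 had 341, 144 and 53.1. Igf2r was lower than the average with means of 887, 1891 and 1735, and it missed the 2-fold limit without NIH3T3 replicate 2 (-0.99). Ncam1, an adhesion molecule gene, was lower than each line with 185 and 202 in co-cultured OP9 cells, 589 and 567 in NIH3T3 cells and 494 and 469.9 in MC3T3 cells. The genes not called included Vegfa, Vegfb, Bmpr1a, Tgfbr2, Tgfbr3, Ltbr, Ccl25 and Tnfrsf1b.

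Genes furthest below both lines had means under 100 with the probe sets used, in co-cultured OP9 cells and also on the OP9 arrays without pre-B cells. Cd34, encoding a sialomucin of stem cells, vessels and fibroblasts, read 10.9 and 10.5 in co-cultured OP9 cells, 2260.0 and 2366 in NIH3T3 cells and 3858 and 3308 in MC3T3 cells (-8.07 ± 0.08 (SE), adjusted p = 1.38e-07), and 10.5 and 10.7 in OP9 cells without pre-B cells. Cdh2, encoding N-cadherin, read 21.8 and 22.5 in co-cultured OP9 cells, 671 and 877 in NIH3T3 cells and 1576 and 1379.9 in MC3T3 cells (-5.59 ± 0.12 (SE), adjusted p = 3.22e-07). Igfbp6, a binding protein of insulin-like growth factors, read 31.1 and 28.9 in co-cultured OP9 cells, 4478 and 4346 in NIH3T3 cells and 1013 and 991 in MC3T3 cells (-6.13 ± 0.07 (SE), adjusted p = 1.38e-07). The co-culture arrays were at background for these 3 genes.

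Celf2, which encodes an RNA-binding regulator of splicing, had means of 21.4, 1113 and 1293. Ptgs2, encoding the inducible cyclooxygenase, had 32.5, 3063 and 575, and Pla2g7, encoding the enzyme that breaks down platelet-activating factor, had 18.1, 301 and 2344. The scaffold gene Lin7c (23.2, 869 and 1134), the tetraspanin gene Tspan17 (22.01, 808 and 628), Ankrd1 (17.7, 626 and 378) and Mfsd6 (22.6, 196 and 1593) completed the group, with Car9 and Ndrg1 described below. Lin7c was not at background with every probe set, since others gave co-culture means of 184 and 258 with differences of -1.02 and -1.35, and one gave -3.89 in place of -5.42.

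Adhesion genes split nearly evenly, with 12 higher and 10 lower of 33 tested (all genes 13.4% and 9.83%) and a median of -0.08 (0.26 with a minimum of 200). Besides Icam1 and Jam2, those higher than each line included the cadherin gene Cdh13 (279.6, 34.2 and 30.3) and the syndecan gene Sdc3 (1608, 247 and 377). Besides Cd34, Cdh2, Alcam and Ncam1, those lower than each line were the integrin genes Itga6 (111, 318 and 1155) and Itgb8 (7.88, 75.6 and 103). The last was the immune regulator gene Cd200 (20.2, 40.2 and 314), whose co-culture and NIH3T3 means were both close to background. The integrin gene Itgb1 was bright and level in all groups (2421, 2199 and 3107).

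**Figure D5:**
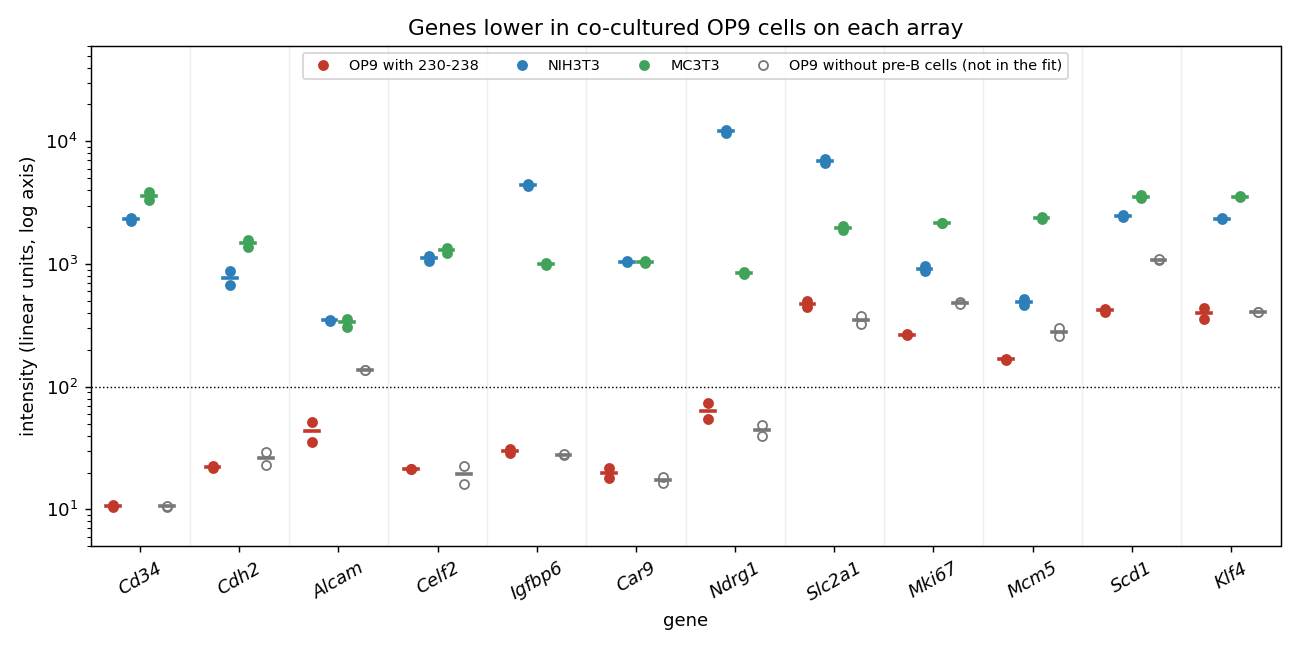
Intensity (linear units, log axis) of 12 genes that were lower in co-cultured OP9 cells, on every array, with filled points for the arrays compared, open points for OP9 cells grown without pre-B cells, bars for group means and a dotted line at the minimum of 100. Both co-culture arrays lie below all 4 arrays of NIH3T3 and MC3T3 cells for each gene. Cd34, Cdh2, Celf2, Igfbp6, Car9 and Ndrg1 lie under 100 in OP9 cells with and without pre-B cells, at co-culture means from 10.7 to 63.8.

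Genes of the response to low oxygen and of glycolysis were lower in co-cultured OP9 cells. Of 25 tested, 10 were lower and 2 higher than the average, 8 were lower than each line, and the median was -0.73. Car9, encoding a carbonic anhydrase that is a target of HIF-1, read 21.8 and 17.9 in co-cultured OP9 cells, 1034 and 1052 in NIH3T3 cells and 1016 and 1061 in MC3T3 cells (-5.72 ± 0.09 (SE), adjusted p = 1.77e-07). Ndrg1, a stress-induced gene, read 73.1 and 54.5 in co-cultured OP9 cells, 11807 and 12293 in NIH3T3 cells and 824 and 855 in MC3T3 cells (-5.65 ± 0.12 (SE), adjusted p = 3.03e-07). Slc2a1, the glucose transporter GLUT1, read 448 and 497 in co-cultured OP9 cells, 7143 and 6637 in NIH3T3 cells and 1886 and 2038 in MC3T3 cells (-2.96 ± 0.08 (SE), adjusted p = 5.93e-07). NIH3T3 cells were the brightest group for Ndrg1 and Slc2a1, and both lines were level for Car9.

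The enzymes of glycolysis moved less. Hk2 had means of 224, 1772 and 619, Pfkp 361, 1763 and 1130.2 and Ldha 4237, 9397 and 9591, and the 3 were lower than each line, whereas Tpi1 (8812, 9212 and 10060.3) and Pgk1 (8312, 15322 and 13792) were not called. Hif1a itself was higher than each line with 6007 and 6079.7 in co-cultured OP9 cells, 2403 and 2558 in NIH3T3 cells and 3055 and 2562 in MC3T3 cells, as was Pfkfb3, encoding an activator of glycolysis (190.4, 24.4 and 78.4). Only 1 of these 2 passed against each line without MC3T3 replicate 2, and neither did with the mean of a gene's probe sets. The OP9 arrays without pre-B cells were within 2-fold of the co-culture arrays for all 8 genes lower than each line.

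Cell cycle genes were lower, above all against MC3T3 cells. Of 36 tested, 23 were lower and 3 higher than the average (median -1.21), with 26 lower against MC3T3 cells and 11 against NIH3T3 cells. Mki67, the proliferation antigen, read 263 and 267 in co-cultured OP9 cells, 957 and 877 in NIH3T3 cells and 2179.8 and 2174 in MC3T3 cells (-2.41 ± 0.07 (SE), adjusted p = 6.9e-07). Mcm5, encoding a subunit of the replicative helicase, read 165 and 169 in co-cultured OP9 cells, 465 and 519 in NIH3T3 cells and 2397 and 2328 in MC3T3 cells (-2.69 ± 0.07 (SE), adjusted p = 5.95e-07). Bub1, a kinase of the mitotic checkpoint, had means of 77.02, 276 and 1261 and Ccne2, a cyclin of S phase entry, 27.7, 71.9 and 485. These 4 genes were among the 10 lower than each line, with co-cultured OP9 cells lowest, NIH3T3 cells next and MC3T3 cells highest.

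The inhibitor genes Cdkn2a and Cdkn2b were the other way round. Cdkn2b read 1333 and 1421 in co-cultured OP9 cells, 32.8 and 22.7 in NIH3T3 cells and 25.1 and 19.4 in MC3T3 cells (5.81 ± 0.17 (SE), adjusted p = 8.25e-07), and Cdkn2a read 108 and 121 in co-cultured OP9 cells, 18.5 and 19.7 in NIH3T3 cells and 12.3 and 13.7 in MC3T3 cells (2.86 ± 0.08 (SE), adjusted p = 8.13e-07). Loss of this locus is a known feature of NIH3T3 cells, and both genes were at background in both lines. Mtap, a metabolic gene that neighbours Cdkn2a on the chromosome, differed between the lines, with 1217 and 1219 in co-cultured OP9 cells, 8727 and 8637 in NIH3T3 cells and 179 and 132 in MC3T3 cells. The inhibitor gene Cdkn1a was bright and level in all groups (4300.4, 4489.7 and 4529).

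Cholesterol synthesis genes were lower against MC3T3 cells rather than both lines. Of 21 tested, 18 were lower against MC3T3 and 1 against NIH3T3 cells, where 3 were higher. Against the average 8 were lower (5 with the mean of a gene's probe sets) and 1 higher. Sqle, encoding squalene epoxidase, was the one lower than each line, with 915 and 933 in co-cultured OP9 cells, 2479 and 2517 in NIH3T3 cells and 4096 and 3557 in MC3T3 cells (2 genes without co-culture replicate 2 or NIH3T3 replicate 2). Fdps, an enzyme of isoprenoid synthesis, was close to NIH3T3 cells with means of 1268, 1472 and 8688.

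Immediate early genes, which respond within minutes to growth signals and stress, gave 7 higher and 5 lower of 22 tested (all genes 13.4% and 9.83%). Egr3 read 405 and 441 in co-cultured OP9 cells, 8.46 and 9.97 in NIH3T3 cells and 139 and 148 in MC3T3 cells on the probe set used, and another probe set gave a difference of 0.23 in place of 3.54. Nr4a1, encoding an orphan nuclear receptor, read 399 and 401 in co-cultured OP9 cells, 162 and 174 in NIH3T3 cells and 171 and 167 in MC3T3 cells and was higher than each line, although the OP9 arrays without pre-B cells were far above it at 3487 and 3561. Klf4, encoding a zinc finger factor of stem cells and epithelia, was lower than each line with 356 and 442 in co-cultured OP9 cells, 2334 and 2367 in NIH3T3 cells and 3562 and 3523 in MC3T3 cells, as was Fosl1 (257, 1169 and 879). Fos (221, 140.4 and 265) and Egr1 (868, 965 and 924) were not called, and they read 6401 and 6382 and 5314 and 5624 on the OP9 arrays without pre-B cells.

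Whether a gene that set co-cultured OP9 cells apart had a like level without pre-B cells was described by the ratio to the OP9 arrays left out of the fit. Of the 708 genes higher than each line, 538 (76%) were within 2-fold of those arrays, 141 (19.9%) were more than 2-fold above them and 29 (4.1%) more than 2-fold below. Of the 432 lower than each line, 373 (86.3%) were within 2-fold, 9 above and 50 below. Over all genes tested 94.7% were within 2-fold. The co-culture arrays enter both the choice of these genes and the ratio, which favours ratios in the direction of the call, so no test was made.

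The lists differed in this respect. All 3 niche factors, all 4 stromal surface and transcription factors and all 6 interstitial matrix genes higher than each line were within 2-fold of OP9 cells without pre-B cells. With a share of 76% over all 708 genes, sets this small do not stand out. Other niche factors, Il7, Igf1, Ptn and Bmp4, were more than 2-fold below the OP9 arrays without pre-B cells. Vcam1, Gas6, Kitl and Csf1 were within 2-fold. In contrast 14 of 17 interferon genes, 5 of 5 antigen processing genes, 9 of 11 NF-kB genes and 3 of 4 chemokines were more than 2-fold above those arrays. So were Ccl2, Ccl7 and Ccl9, which were not higher than each line and lie outside this count. Among the adipocyte genes 5 of 6 were more than 2-fold below. Of the 14 receptors higher than each line, 7 were above and 6 within 2-fold.

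Most genes between the lines were not called against their average, and 20 of the 98 and 50 given above were. Id4, encoding an inhibitor of helix-loop-helix factors, read 162 and 139.5 in co-cultured OP9 cells, 9.69 and 8.596 in NIH3T3 cells and 5158 and 5139 in MC3T3 cells, and was 16.4-fold above NIH3T3 and 34.3-fold below MC3T3 cells. Sorbs2, an adaptor of the cytoskeleton, read 181 and 173 in co-cultured OP9 cells, 12.1 and 12.5 in NIH3T3 cells and 2682 and 2671 in MC3T3 cells, and its difference from the average was only -0.03. Ccn3, a secreted matricellular protein that acts on blood progenitors, read 131 and 149.9 in co-cultured OP9 cells, 14.3 and 16.3 in NIH3T3 cells and 1138 and 1101 in MC3T3 cells, with 18.9 and 19.9 on the OP9 arrays without pre-B cells. Timp3 (426, 22.97 and 2584) and the sodium pump subunit gene Atp1b1 (163, 8.11 and 1975) had the same order, and other probe sets of Atp1b1 above the minimum gave differences from the average between -0.54 and -1.43, with 0.06 for one below it.

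In the opposite order were Adm, encoding the vessel-widening peptide adrenomedullin, with 786 and 718 in co-cultured OP9 cells, 3507 and 3715 in NIH3T3 cells and 46.4 and 42.9 in MC3T3 cells, and Rgs2, a regulator of G protein signals, with 190.3 and 184 in co-cultured OP9 cells, 1882 and 1953 in NIH3T3 cells and 48.98 and 43.1 in MC3T3 cells. Rps6ka6 (53.3, 285 and 10.2), Mtap and Cd68, encoding a lysosomal protein of macrophages (139, 532 and 22.1), completed the 5 with the widest gaps on that side.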

How the data were processed

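RNA of OP9 cells cultured with 230-238 cells, NIH3T3 cells and MC3T3 cells was measured on Affymetrix mouse 430 2.0 arrays, 2 arrays per group. For 45101 probe sets per array the authors deposited an intensity after normalization, not in log units. The study's methods name RMA and dChip programs, and the one that wrote these values is not stated. Groups came from the sample titles.

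Of the probe sets, 34958 had 1 gene symbol in the annotation of the array, 932 several and 9211 none, and only the first were named. Intensities were log2-transformed as they stood. Each gene was read from its brightest named probe set across the 6 arrays, kept at 100 or more on at least 2 arrays, and 1146 genes were read by probe sets that can bind related transcripts. Group means were fitted with limma 3.58.1 in R 4.3.3 (lmFit, contrasts.fit, eBayes, 3 residual degrees of freedom) with Benjamini-Hochberg adjustment over all 9970 genes, without the OP9 arrays grown without pre-B cells. At an unadjusted p under 0.05, 3918 genes were higher and 3535 lower than the average. The number of arrays limits the precision.

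Named genes were the 12 largest differences in each direction among genes called against each line, the genes of the study's tables and text, up to 4 called members per list and direction, the 5 genes with the widest gaps on each side between the lines, and further list members named by role after their values were seen. The members and lists were chosen with earlier results of these data known. Simulated data over 9970 genes were used for the comparison with the average. There 92% of genes changed 2.5-fold and 100% of those changed 4-fold were called, with 0 false calls. These figures hold for the simulated scatter only. They do not measure false calls on the real arrays, where part or all of the scatter may be technical. Promoter windows are from RefSeq (GRCm38.p6). Alternatives were other filters, pseudocount 16, quantile and median scaling, the mean of a gene's probe sets or each probe set, no _x_at and _s_at probe sets, other thresholds, lines pooled, all 8 arrays, a trend prior, a replicate block and leaving out each array.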

Additional observations from a re-analysis of the deposited data

Results flagged for a closer look

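Co-culture differed from the lines in opposite directions for 10 genes, which is why they are listed here. The difference between the effects against NIH3T3 and against MC3T3 cells equals MC3T3 minus NIH3T3 on the log2 scale, because the co-culture arrays cancel. It was 9.14 for Id4, 7.77 for Sorbs2, 7.93 for Atp1b1, 6.20 for Ccn3 and 6.82 for Timp3, where the MC3T3 cells were higher. It was -5.82 for Mtap, -4.80 for Rps6ka6, -6.34 for Adm, -5.38 for Rgs2 and -4.59 for Cd68, where the NIH3T3 cells were higher. The adjusted p of this difference in limma lay between 5.3e-08 and 4.37e-07, and for each gene both co-culture arrays lay between the arrays of the lines. The genes were picked for these opposite directions, so the p-values describe the choice. Groups of 2 arrays are too small to single out an array.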

How the results depend on the processing

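The calls against the average of both lines depended on the threshold and the handling of probe sets more than on single arrays. Of the 2317 calls, 2279 were the same under quantile normalization, 2304 under median scaling, 2103 with a pseudocount of 16, 1664 of the 1988 genes still tested with the mean of a gene's probe sets, and between 2242 and 2278 when 1 array was left out, where a lone array is assumed to vary like the other groups. The median over all genes was -0.0166 with no filter and 0.00446 under quantile normalization. With no minimum fold the counts (higher and lower) were 3789 and 3438 against the average, 2184 and 1909 against each line, 4129 and 3305 against NIH3T3, 3271 and 3456 against MC3T3, and 730 and 498 between the lines. At 5-fold they were 369 and 162, 191 and 66, 560 and 221, 335 and 339, and 9 and 2. With each probe set tested on its own they were 2142 and 1639, 1110 and 696, 3136 and 1955, 1782 and 2012, and 164 and 81 of 16735 probe sets. With the mean of a gene's probe sets 26 genes lay below NIH3T3 and above MC3T3 cells. With the lines pooled as 1 group, where the gap between the lines counts as error, 711 genes were higher and 448 lower than the average, and the lists had 18 higher interferon genes, 11 NF-kB genes, 3 niche factors and 5 lower cell cycle genes. Of 182 named genes tested, 109 stayed on their side of the threshold under every alternative, and none changed direction while called with the probe set used, although other probe sets of H2-D1 (6.05 and 1.38) and H2-K1 (1.53) ran the opposite way. Single-gene calls lost without 1 array were those of Tnfrsf1a, Igf2r and Blnk.

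The replicate numbers did not pair the arrays, since the deviations of arrays with the same number correlated at 0.06, 0.05 and 0.03 across genes, and a fit with the replicate number as a block kept 2317 of 2317 calls, with 1337 higher and 980 lower. Values under 100 are close to background, so folds between or against such values are less certain.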
